A study of Mus musculus with 2 samples.

Results

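Integrin and laminin subunit genes were taken as the protein-coding mouse genes whose symbols name an integrin alpha chain, an integrin beta chain or a laminin alpha, beta or gamma chain. This rule found 37 of the 43346 mouse genes in the tables. Of these, 26 encode integrin subunits (18 alpha and 8 beta chains) and 11 encode laminin subunits (5 alpha, 3 beta and 3 gamma chains).

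Laminins are secreted trimers of 1 alpha, 1 beta and 1 gamma chain, and they form the sheet-like network of every basement membrane. Integrins are transmembrane receptors made of 1 alpha and 1 beta chain that tie the actin cytoskeleton to laminins, collagens, fibronectin and other ligands. In the embryonic heart, basement membranes line the muscle wall, the inner lining (the endocardium) and the outer lining (the epicardium).

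The study measured RNA in hearts dissected from B6NCrl mouse embryos aged 10.5 days, when the looped tube already beats and its chambers are forming. It held 1 group of 2 libraries, which the labels number as separate biological replicates. Replicate 2, called pool 2 here, combined hearts of 51 embryos and replicate 1, called pool 1, those of 69, each of mixed sex. Each library was made from 10 ng of total RNA longer than 200 nt to which the ERCC set of synthetic control RNAs was added as spike-ins. No other condition was measured, and pooling leaves no value for a single embryo. Levels are therefore compared between members and between the 2 pools, without p-values, and each mean is given ± SD over n = 2 pools.

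Expected counts, the authors' estimates of reads per gene, summed to 39786163 in pool 2 and 43295923 in pool 1 over mouse genes. Levels are given in TPM, a relative abundance per transcript that divides counts by length. The pools differed beyond sampling noise, with a chi-square of 71.97 per degree of freedom over 24510 genes and a common biological coefficient of variation of 0.301 (edgeR, 17557 genes). Markers of heart muscle and of several other cell types also differed between them. All 6 cardiomyocyte markers and 6 of 7 endothelial markers were higher in pool 2, with summed levels of 18764 TPM in pool 2 and 10438 TPM in pool 1 for the cardiomyocyte list. All 7 liver markers were lower in pool 2, with 52.6 TPM in pool 2 and 1288 TPM in pool 1 in sum, and so were all 6 markers of epithelium and foregut (158 and 394 TPM), all 5 of mesenchyme (463 and 757 TPM) and all 8 of macrophages and other leukocytes (10.8 and 27.9 TPM). The 5 epicardial markers were split, with 2 higher and 3 lower in pool 2, and summed to 234 TPM in pool 2 and 243 TPM in pool 1. No marker in these lists was at 0 in either pool. Their part in the differences between pools given below was not tested.

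Of the 37 members, 24 were detected, meaning 1 TPM or more in each pool, and the other 13 lay below 1 TPM in both. Over all 21474 protein-coding genes the share detected was 57%. By family, 10 of 11 laminin genes and 14 of 26 integrin genes were detected. Together the members held 975.1 TPM in pool 2 and 742 TPM in pool 1. Their share of all mouse gene counts, which are not divided by length, was 0.271% in pool 2 and 0.203% in pool 1. The range across members was wide. Itgb1 averaged 242 ± 34.7 TPM and ranked 579 among protein-coding genes, while Itgax averaged 0.04 TPM from 3 counts in pool 2 and 5 in pool 1.

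**Figure D1:**
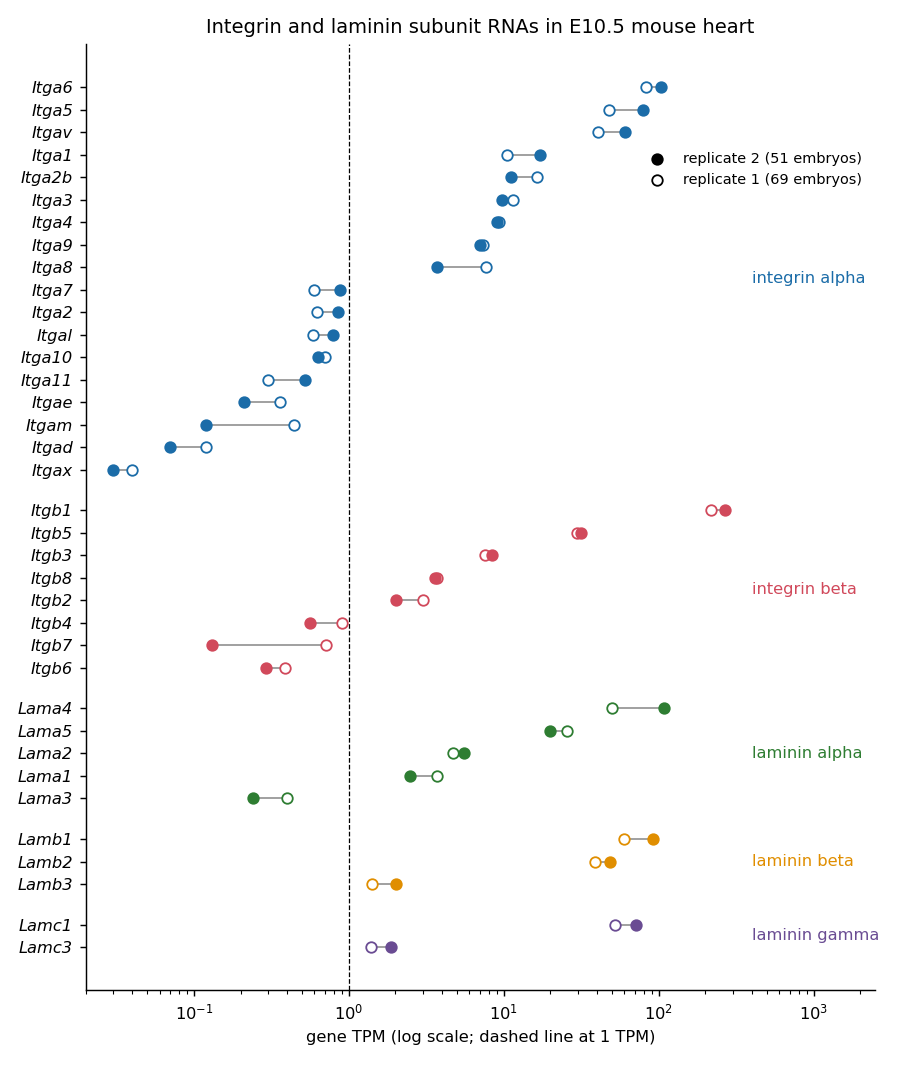
Gene TPM on a log axis for the members described, grouped by chain and ordered by mean, with filled circles for replicate 2 (pool 2) and open circles for replicate 1 (pool 1). Itgb1 lies far right of the other beta chains, and 13 members lie left of the dashed line at 1 TPM in both pools.

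Lama4 was the leading laminin alpha chain. Its product is a short alpha chain known from vessel walls and muscle. Lama4 (ENSMUSG00000019846.7, mm10 chr10:38965515-39110188, plus strand) reached 108 TPM in pool 2 and 49.7 TPM in pool 1, a mean of 79.0 ± 41.5 TPM. Lama5 (chr2:180176373-180225859, minus strand), a long alpha chain of many epithelial and vascular basement membranes, followed with 20.0 TPM in pool 2 and 25.6 TPM in pool 1. The log2 TPM ratio of Lama5 over Lama4 was -1.70 ± 1.05, negative in both pools. It was larger than the spread between pools, taken as a limit of 1.01 from the genes nearest to each of them in level. In pool 1 alone the ratio was -0.95, inside that limit.

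The remaining alpha chains were low. Lama2, the alpha chain of adult striated muscle, stood at 5.53 TPM in pool 2 and 4.71 TPM in pool 1. Lama1, prominent in early embryonic basement membranes, had 2.48 TPM in pool 2 and 3.72 TPM in pool 1. Lama3, known from skin and other epithelia, had 0.24 TPM in pool 2 and 0.40 TPM in pool 1, and was the single laminin gene below 1 TPM. The log2 TPM ratio of Lama4 over Lama2 was 3.85 ± 0.63 and that of Lama5 over Lama1 was 2.897 ± 0.158, both above their limits of 1.57 and 1.92. Neither Lama2 over Lama1 nor Lama1 over Lama3 passed the spread.

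Lamb1 and Lamb2 were both abundant, and their order was not resolved. Lamb1 (ENSMUSG00000002900.11, chr12:31265234-31329644, plus strand), the beta chain of most embryonic laminins, had 91.6 TPM in pool 2 and 59.6 TPM in pool 1. Lamb2 (chr9:108479736-108490530, plus strand), the beta chain of the neuromuscular junction and the kidney filter, had 48.8 TPM in pool 2 and 38.5 TPM in pool 1. Lamb1 was the higher in each pool, with a log2 TPM ratio over Lamb2 of 0.77 ± 0.20, which did not pass the limit of 0.95. Lamb3, which pairs with Lama3 in skin, averaged 1.71 ± 0.424 TPM, below Lamb2 by more than the spread. Lamb1 held 62.1 ± 3.15% of all laminin beta TPM.

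Among the gamma chains, Lamc1, the gamma chain of nearly all laminins, held 91.0 ± 0.717% of the TPM. Lamc1 (ENSMUSG00000026478.10, chr1:153218922-153332786, minus strand) had 71.9 TPM in pool 2 and 51.9 TPM in pool 1. Lamc3, a rarer gamma chain, averaged 1.64 ± 0.346 TPM. The log2 TPM ratio of Lamc1 over Lamc3 was 5.24 ± 0.02, above the limit of 2.22. Of 15 laminin trimers named in textbooks, 12 had every chain detected, and the 3 that did not all contain Lama3. The trimer whose lowest chain was highest joins Lama4, Lamb1 and Lamc1, with Lamc1 as its lowest chain at a mean of 61.9 TPM. RNA levels do not show which chains assemble.

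**Figure D2:**
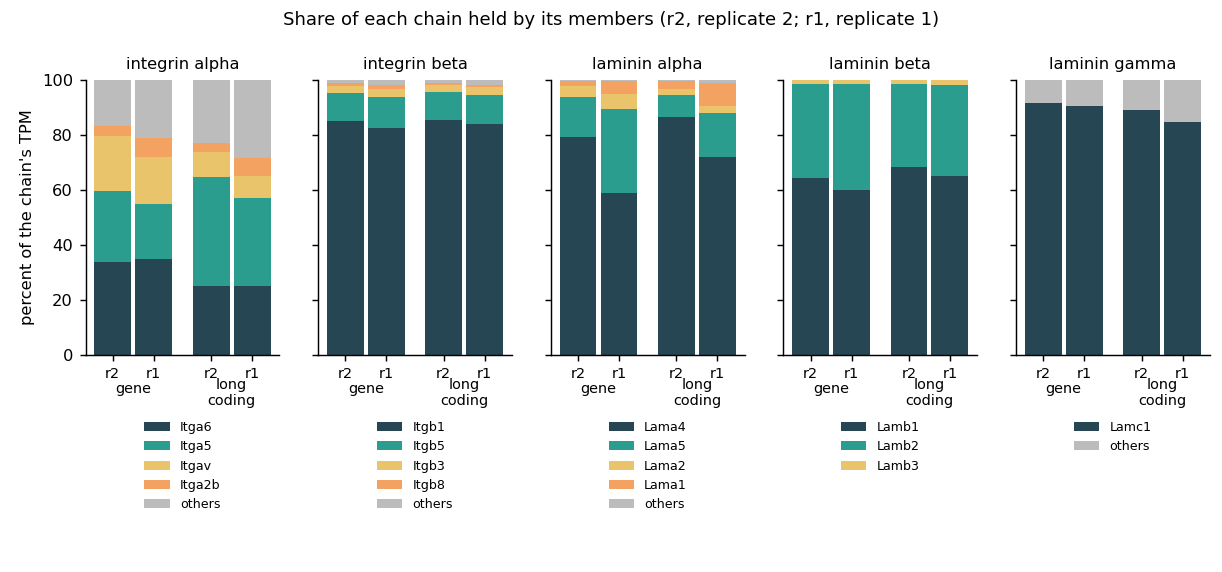
Percent of each chain's summed TPM held by its most abundant members, as stacked bars for replicate 2 (r2, pool 2) and replicate 1 (r1, pool 1), from gene TPM and from long coding transcripts only. Itgb1 and Lamc1 fill most of their bars in every column, while the share of Lama4 is 79.4% in pool 2 and 59.0% in pool 1 by gene TPM.

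On the receptor side, Itgb1 dominated the beta chains. Its product is the common partner of many alpha chains. Itgb1 (ENSMUSG00000025809.11, chr8:128685654-128733200, plus strand) had 266 TPM in pool 2 and 217 TPM in pool 1, from 26468 and 24223 counts. It held 83.9 ± 1.85% of all integrin beta TPM. Itgb5 (chr16:33829665-33949338, plus strand), a partner of the Itgav product in vitronectin binding, had 31.4 TPM in pool 2 and 29.6 TPM in pool 1. Itgb3, the platelet and vascular partner of Itgav and Itga2b, had 8.35 TPM in pool 2 and 7.57 TPM in pool 1. The log2 TPM ratio of Itgb1 over Itgb5 was 2.98 ± 0.15 and that of Itgb5 over Itgb3 was 1.94 ± 0.04, both above their limits of 0.97 and 1.36.

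Lower beta chains did not separate from their neighbours. Itgb8, whose integrin binds latent TGF-beta, averaged 3.66 ± 0.0495 TPM, and Itgb2, the leukocyte beta chain, averaged 2.51 ± 0.693 TPM. Itgb4, the beta chain of hemidesmosomes, Itgb6, an epithelial chain, and Itgb7, a lymphocyte chain, were each below 1 TPM in both pools. Itgb7 rested on 9 counts in pool 2 and 56 in pool 1.

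The last coding exon of Itgb1 differs between its widespread form A and the striated-muscle form D, and the exons are printed because the tail they encode binds the cytoskeletal adaptors. In the lines that follow, from GENCODE M21 transcripts on GRCm38, lower case is the shared end of the upstream exon and capitals are coding bases of the alternative exon, read 5′ to 3′ on the plus strand of chromosome 8. The A exon lies at chr8:128732023-128732085 and the D exon at chr8:128726983-128727054.
Itgb1 A: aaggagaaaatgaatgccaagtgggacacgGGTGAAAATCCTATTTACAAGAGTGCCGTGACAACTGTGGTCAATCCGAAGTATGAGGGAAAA
Itgb1 D: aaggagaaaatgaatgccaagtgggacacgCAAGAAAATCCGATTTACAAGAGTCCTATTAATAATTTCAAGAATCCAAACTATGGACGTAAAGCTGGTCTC
The exons were identical at 42 of 72 aligned columns (58.3%). Nearly all Itgb1 signal was on the form A transcript Itgb1-201, with 97.08% of the gene's TPM in pool 2 and 98.43% in pool 1. The transcript with the D exon, Itgb1-204, held 2.86% of TPM in pool 2 and 1.45% in pool 1, from 128 and 58.7 counts. Its model is a fragment of 711 nt, so its TPM is not that of a full-length mRNA, and the form D share is a description of few reads. It has 4 exons, against 16 in Itgb1-201, and reads from exons outside it cannot be assigned to it. The share on Itgb1-201 therefore does not measure form A alone.

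Of the laminin-binding alpha chains, Itga6 was the most abundant. Itga6 (ENSMUSG00000027111.11, chr2:71745616-71858416, plus strand) had 103 TPM in pool 2 and 82.7 TPM in pool 1, the highest mean of all alpha chains at 92.9 ± 14.5 TPM. Itga3 (chr11:95044474-95076801, minus strand), a receptor for Lama5-containing laminins, had 9.76 TPM in pool 2 and 11.5 TPM in pool 1. Itga7, the main laminin receptor of mature skeletal and cardiac muscle, had 0.88 TPM in pool 2 and 0.60 TPM in pool 1, from 94 and 71 counts. The log2 TPM ratio of Itga6 over Itga3 was 3.13 ± 0.39 (limit 1.34) and that of Itga6 over Itga7 was 6.99 ± 0.16 (limit 2.91). In long coding transcripts, defined below, these ratios were 2.11 and 5.90, smaller and still past the same limits, which were set from gene TPM. Itga7 thus lay below the detection threshold in a tissue whose 6 cardiomyocyte markers summed to 18764 TPM in pool 2 and 10438 TPM in pool 1.

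Itga6 and Itga3 each end in a choice of 2 cytoplasmic tails, A or B, set by alternative exons that are printed here because the tables assign reads to both. Capitals again mark the alternative exon's coding bases and lower case the shared upstream end, from GENCODE M21 transcripts on GRCm38. For Itga6, on the plus strand, the A exon lies at chr2:71853534-71853638 and the B exon at chr2:71855854-71856012. For Itga3, on the minus strand, the A exon lies at chr11:95046483-95046590 and the B exon at chr11:95045611-95045763.
Itga6 A: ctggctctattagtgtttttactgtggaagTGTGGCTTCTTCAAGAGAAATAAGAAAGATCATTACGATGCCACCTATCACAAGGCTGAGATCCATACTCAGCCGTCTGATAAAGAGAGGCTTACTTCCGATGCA
Itga6 B: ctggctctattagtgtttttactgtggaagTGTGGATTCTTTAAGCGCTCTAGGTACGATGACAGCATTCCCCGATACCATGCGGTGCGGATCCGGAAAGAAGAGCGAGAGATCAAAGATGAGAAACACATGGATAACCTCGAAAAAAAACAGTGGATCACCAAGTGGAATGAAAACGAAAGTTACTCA
Itga3 A: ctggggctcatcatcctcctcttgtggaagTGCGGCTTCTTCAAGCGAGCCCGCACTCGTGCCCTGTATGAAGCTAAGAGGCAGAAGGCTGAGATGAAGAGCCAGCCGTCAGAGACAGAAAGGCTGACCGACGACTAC
Itga3 B: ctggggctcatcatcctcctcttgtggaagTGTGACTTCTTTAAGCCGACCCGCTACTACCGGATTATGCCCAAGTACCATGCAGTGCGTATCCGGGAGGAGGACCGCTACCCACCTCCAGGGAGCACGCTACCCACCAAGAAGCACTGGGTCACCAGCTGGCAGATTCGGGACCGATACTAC
The A exons of Itga6 and Itga3, 105 and 108 coding bases long, were identical at 72 of 118 aligned columns (61.0%), and the B exons, 159 and 153 bases long, at 104 of 170 (61.2%).

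Both tails of Itga6 drew reads. Transcripts with the A exon held 65.4% of Itga6 counts in pool 2 and 61.9% in pool 1. Those with the junction to the B exon held 31.9% in pool 2 and 35.4% in pool 1. Counts are not divided by length, and the A models are longer than the B model that drew reads. In TPM the A and B transcripts had 49.4 and 38.4 in pool 2, and 37.9 and 34.4 in pool 1. The B reads were assigned to Itga6-203, a processed-transcript model of 2721 nt that also holds 3′ bases of its own, while the full-length B transcript Itga6-202 was listed at 0 in both pools. For Itga3, the full-length A transcript Itga3-201 held 66.2% of TPM in pool 2 and 91.7% in pool 1. The B transcript Itga3-203 held 24.0% in pool 2, from 295 counts, and was listed at 0 in pool 1. The deposited intervals of Itga3-203, 1.26 to 4.31 TPM in pool 2 and 0.000243 to 1.61 TPM in pool 1, overlapped, so its absence from pool 1 is not shown. By the listed estimates the A form was the higher in each pool for both genes.

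**Figure D3:**
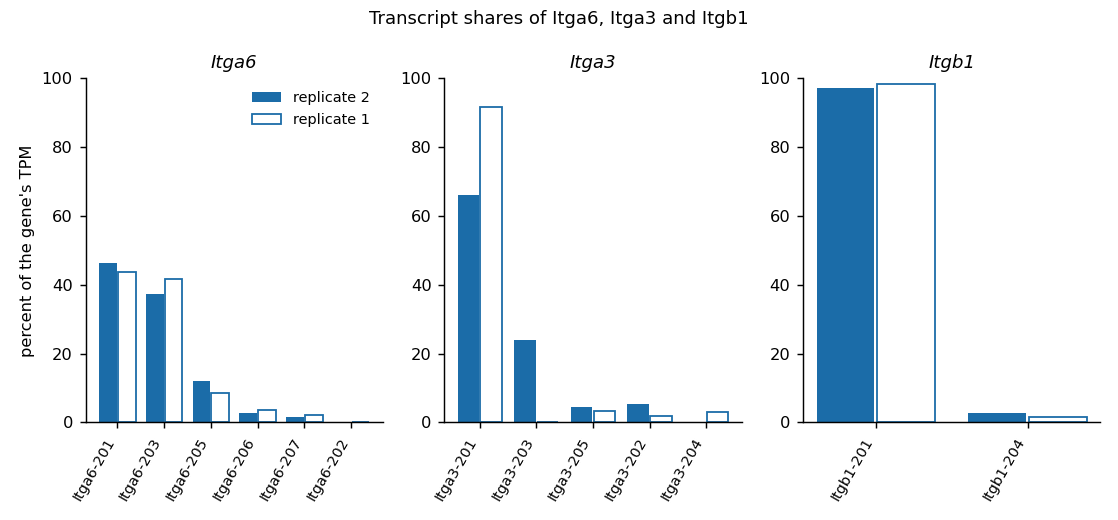
Percent of gene TPM assigned to the main transcripts of Itga6, Itga3 and Itgb1 in replicate 2 (pool 2, filled bars) and replicate 1 (pool 1, open bars). Itga6-201 and Itga6-203 share most of Itga6, Itga3-203 has a listed estimate above 0 in pool 2 only, and Itgb1-201 holds over 97% of Itgb1 in each pool.

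Alpha chains that bind the RGD peptide motif of fibronectin and vitronectin came next. Itga5 (ENSMUSG00000000555.6, chr15:103344286-103366763, minus strand), the classical fibronectin receptor, had 79.0 TPM in pool 2 and 47.9 TPM in pool 1, a mean of 63.5 ± 22.0 TPM. Itgav (chr2:83724397-83806916, plus strand), which pairs with several beta chains, had 60.9 TPM in pool 2 and 40.6 TPM in pool 1. Itga2b, the fibrinogen receptor of megakaryocytes and platelets, had 11.2 TPM in pool 2 and 16.3 TPM in pool 1. Over its partner Itgb3, Itga2b had a log2 TPM ratio of 0.76 ± 0.48 that lay inside the limit of 1.52, and in long coding transcripts it was -0.39 in pool 2 and 0.40 in pool 1, so their order is not set. Itga8, a nephronectin receptor, had 3.71 TPM in pool 2 and 7.70 TPM in pool 1. Megakaryocyte and platelet markers summed to 71.0 TPM in pool 2 and 79.3 TPM in pool 1. Most of that was Pf4, at 56.6 TPM in pool 2 and 61.9 TPM in pool 1, and Gp6 was below 1 TPM in both. The source of the Itga2b RNA was not tested.

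Itga6, Itga5 and Itgav were not separated by gene TPM. Itga6 exceeded Itga5 by 0.59 on the log2 scale, within a limit of 0.95, and the log2 TPM ratio of Itgav over Itga5 was -0.31 ± 0.10, within 0.92. Itgav exceeded the next chain, Itga1, by 1.89, which was above the limit of 1.12, but by 0.16 in long coding transcripts, which was inside it. Over all 18 alpha chains this was the only pair of neighbours in the order of gene TPM to pass the spread, and 11 of 17 neighbouring pairs had the same order in both pools. By gene TPM, 2 of 7 neighbouring pairs of beta chains passed, and for the laminin alpha chains 2 of 4.

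Of the 4 collagen-binding alpha chains, Itga1 alone was detected. Itga1 (chr13:114953096-115101964, minus strand), a receptor for type IV collagen, had 17.2 TPM in pool 2 and 10.5 TPM in pool 1. Itga2, a platelet and epithelial collagen receptor whose gene lies nearby, had 0.85 TPM in pool 2 and 0.62 TPM in pool 1. Itga11, a receptor for fibrillar collagen on fibroblasts, had 0.52 TPM in pool 2 and 0.30 TPM in pool 1. The log2 TPM ratio of Itga1 over Itga2 was 4.21 ± 0.18 and that of Itga1 over Itga11 was 5.09 ± 0.06, both above their limits of 2.98 and 3.20. Itga10, a chain of cartilage, averaged 0.67 TPM.

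Itga4 and Itga9, related chains that bind fibronectin, VCAM1 and tenascin, stood close together. Itga4 had 9.05 TPM in pool 2 and 9.37 TPM in pool 1, and Itga9 had 7.07 TPM in pool 2 and 7.38 TPM in pool 1. Their log2 TPM ratio, Itga4 over Itga9, was 0.35 ± 0.01, far inside the limit of 1.60. In long coding transcripts the ratio was -0.33, so their order is not set.

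None of the 5 leukocyte alpha chains was detected at 1 TPM. Itgal, the lymphocyte chain, averaged 0.69 TPM and Itgae, a chain of intraepithelial lymphocytes, 0.29 TPM. Itgam, the macrophage and neutrophil chain, averaged 0.28 TPM from 15 counts in pool 2 and 30 in pool 1. Its full-length named transcripts were listed at 0, and 6.64 counts in pool 2 and 28 in pool 1 lay on a model with no name in release M21, with 8.36 counts in pool 2 on Gm49368-201, which M21 assigns to another gene. Itgad and Itgax were at or near the floor of 3 counts, with 1 and 3 counts in pool 2 and 2 and 5 counts in pool 1. Itgal, Itgam, Itgax and Itgad all lie on the plus strand of chromosome 7 within 127296260 to 128223816.

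Of 24 integrin pairs named in textbooks, 12 had both chains detected. Of these, 8 contain Itgb1, with Itga1, Itga3, Itga4, Itga5, Itga6, Itga8, Itga9 or Itgav. The others were Itgav with Itgb3, Itgb5 or Itgb8, and Itga2b with Itgb3. The pair of Itga6 and Itgb4, found in hemidesmosomes, was missed through Itgb4 at a mean of 0.73 TPM. The pairs of Itgb1 with Itga2, Itga7, Itga10 and Itga11 were missed through the alpha chain, and that of Itgav with Itgb6 through Itgb6. Pairs with Itgb2 were missed through their alpha chains, and pairs with Itgb7 through Itgb7 and Itgae.

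Several gene TPM values rest on short transcript models. A gene's TPM sums its transcripts, and a few reads on a short model add many TPM. Itgav-205, of 463 nt, held 60.3% of Itgav TPM in pool 2 and 59.5% in pool 1 from 367 and 268 of 3977 and 2928 counts. For Lama5, the full-length transcript held 92.5% of counts in pool 2 and 90.5% in pool 1, but only 33.5% and 27.0% of TPM, and the model Lama5-202, of 451 nt, held 22.6% and 30.3%. Levels were therefore also summed over protein-coding transcripts at least 50% as long as the gene's longest coding one, a choice made after the data were seen. On that scale Itga5 averaged 63.5 ± 22.0 TPM, Itga6 43.6 ± 8.11 TPM, Itgav 15.3 ± 4.45 TPM, Lama4 51.6 ± 28.8 TPM and Lama5 6.80 ± 0.177 TPM.

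The long coding scale changed the order of some members and left others in place. The log2 ratio of Itgav over Itga5 became -2.04, past its limit, and that of Lamb1 over Lamb2 became 1.08, also past it. The ratio of Lama5 over Lama1 became 1.16, inside its limit. That of Itgb3 over Itgb8, 1.12 by gene TPM and inside a limit of 2.00, became 2.06, with Itgb8 at 1.92 TPM on this scale. All these limits were set from gene TPM and were not matched to long coding levels. Passing them on this scale therefore does not show a difference beyond the spread at those levels. Lama2 over Lama1 became -1.11, against 0.75 by gene TPM, and lay inside its limit of 2.26 on both scales. Itga5 took 35.8 ± 5.65% of integrin alpha TPM and Itga6 25.01 ± 0.228%, against 23.0% and 34.3% by gene TPM, but this scale omits Itga6-203 with the B junction. Itgb1 (236 ± 31.6 TPM) and Lamb1 (65.4 ± 22.5 TPM) led their chains on either scale, as did Lama4 and Lamc1.

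**Figure D4:**
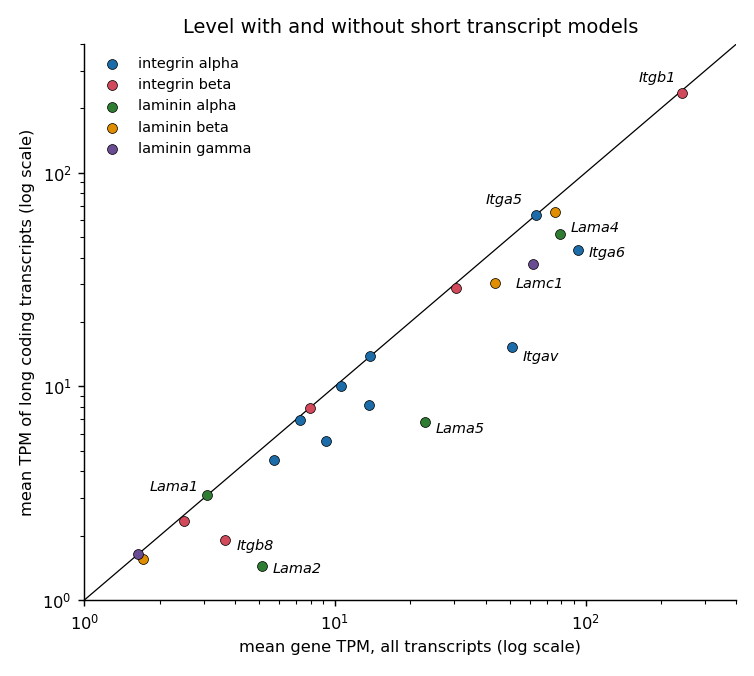
Mean TPM of long coding transcripts against mean gene TPM for the detected members described, both axes log, with the line of equal values. Itgav, Lama5, Lama2, Itga6 and Itgb8 lie well below the line, and Itgb1 and Itga5 lie on or near it.

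Transcript shares of the other laminin and integrin genes also carried short models. Lamc1-201 held 62.5% of Lamc1 TPM in pool 2 and 56.8% in pool 1, and Lamc1-204, a model of 1447 nt, held 37.0% and 42.1%. Lamb1-201 held 87.9% and 81.5% of Lamb1 TPM, with a further 8.32% and 11.1% on a model that has no name in release M21. Lama2-201, the full-length form, held 32.6% of Lama2 TPM in pool 2 and 23.3% in pool 1, and the retained-intron model Lama2-206 held 26.5% and 31.9%. Of the genes below 1 TPM, Lama3-201, the long form, held 92.5% and 64.0% of Lama3 TPM against 7.46% and 36.0% for the short form Lama3-202. Itgb4-202 held 46.9% and 31.99% of Itgb4 TPM and Itgb4-203 held 30.2% and 28.4%. These last values rest on 65 and 105 counts for Lama3 and 87 and 156 counts for Itgb4. Itga7 had 1 transcript in the tables.

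Between the pools, Lama4 was the only member called as differing. The call required a mean count of 50 or more, a ratio of at least 2-fold between scaled counts and deposited TPM intervals that did not overlap. Lama4 had 12520 counts in pool 2 and 6066 in pool 1, a log2 ratio of 1.29 after TMM scaling, with intervals of 102 to 110 TPM in pool 2 and 46.3 to 51.7 TPM in pool 1. This was 1 of 31 members with enough counts, beside 7.06% of all 14124 genes tested and 2.31% called higher in pool 2. Itga8 lay just under the call, with a log2 ratio of -0.96 and 481 counts in pool 2 against 1109 in pool 1, and was called when deposited TPM was used instead. The next largest, Itga11 at 0.86, Itga5 at 0.82, Itga1 at 0.81 and Lamb1 at 0.79, also had intervals that did not overlap, a condition that 52.3% of tested genes met. In bulk RNA of this kind, a smaller share of cells of a type and less RNA per cell cannot be told apart.

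Counted by direction alone, with the called Lama4 included, more members were higher in pool 2 than in pool 1. Of 35 members with a mean count of 10 or more, 24 were higher in pool 2 and 11 in pool 1, with a median log2 ratio of 0.24. The share higher in pool 2 was 49.8% over protein-coding genes, with a median of -0.00131, and 49.5% over all genes. Direction here and for the lists below is that of TMM-scaled counts, and some ratios lay near 0. Laminin genes were higher in 9 of 11 cases, with a median of 0.50, and the exceptions were Lama1 at -0.48 and Lama3 at -0.44. Lama5, counted as higher at 0.013, had 20.0 TPM in pool 2 and 25.6 TPM in pool 1. Itga4, Itga9, Itga10 and Itgb8 were also counted as higher with lower TPM in pool 2. No member counted as lower had higher TPM in pool 2. Integrin alpha genes were higher in 11 of 16 cases, with a median of 0.24. Integrin beta genes split 4 and 4, with a median of -0.08 that was 0.24 when scaled by spike-ins and 0.24 when only genes with a mean count of 100 or more were kept. Spike-in scaling moved the median of all protein-coding genes to 0.32, so the beta median on that scale lay below it, as it did by TMM.

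**Figure D5:**
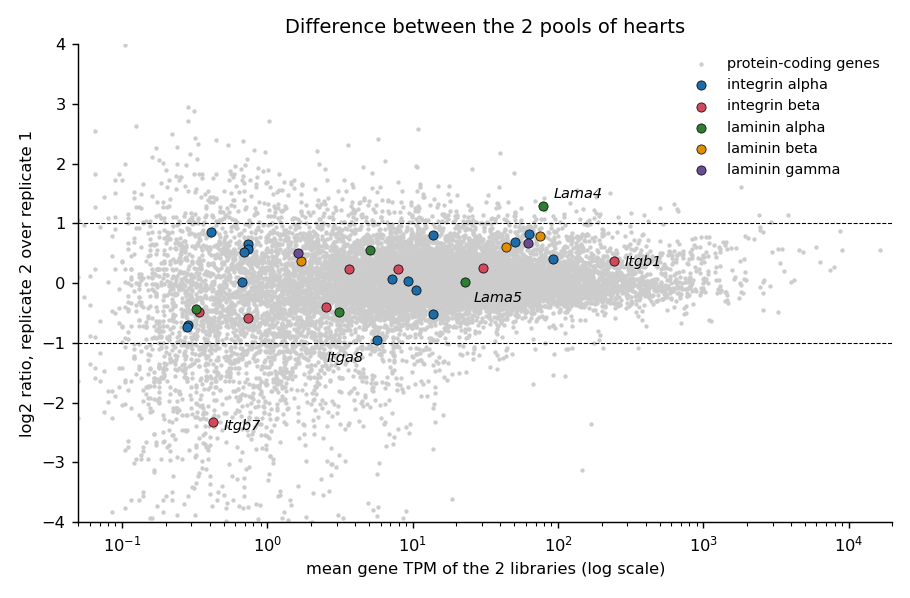
Log2 ratio of TMM-scaled counts, pool 2 over pool 1, against mean gene TPM on a log axis, for all protein-coding genes (grey) and the members described (coloured by chain), with dashed lines at 2-fold and ratios beyond 4 not drawn. Lama4 lies above the upper line, Itga8 just inside the lower one, and Itgb7, at 9 and 56 counts, far below it.

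Other parts of the basement membrane were also mostly higher in pool 2. Of 12 such genes, 11 were higher in pool 2, beside 49.8% of protein-coding genes, with a median log2 ratio of 0.54, and 9 were detected. The exception was Col15a1 at -1.06, with 61 counts in pool 2 and 152 in pool 1, which was not called because its intervals overlapped. Col4a1, a chain of the type IV collagen network, was called, with 187 TPM in pool 2 and 95.7 TPM in pool 1 (log2 ratio 1.07). This was 1 of 10 with enough counts, beside 7.06% of all genes tested and 2.31% called higher in pool 2. The most abundant were Col18a1 at 226 ± 53.3 TPM, Nid2 at 154 ± 51.5 TPM, Col4a1 at 141 ± 64.7 TPM and Col4a2 at 64.1 ± 25.6 TPM, and Col4a3 and Col4a4 were below 1 TPM in both pools. Nidogens such as Nid2 link laminin to type IV collagen, and the means of Lama4 and Lamb1, 79.0 and 75.6 TPM, lay between those of Col4a1 and Col4a2. Laminin receptors outside the integrin family were abundant, with Bcam at 140 ± 33.6 TPM and Dag1, the dystroglycan gene, at 136 ± 42.8 TPM, and their log2 ratios were 0.61 and 0.72.

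Ligands of integrins outside the basement membrane were split between the pools. Of 22 genes, 9 were higher in pool 2 and 13 in pool 1, and 5 were called, all lower in pool 2 (all-gene rate for that direction 4.75%). These were Vtn, Fga, Fgb, Fgg and Cdh1. Vtn, which encodes the plasma protein vitronectin, had 1.31 TPM in pool 2 and 36.4 TPM in pool 1. Fgb, a fibrinogen chain, had 1.25 TPM in pool 2 and 35.8 TPM in pool 1. Vtn and the fibrinogen genes are known from liver, whose 7 markers were all lower in pool 2, and Cdh1 is itself in the epithelial marker list. Col1a1 and Col3a1, lower in pool 2 and not called, are also in the mesenchyme marker list. The source of these RNAs was not tested. Ligands with high levels in each pool were Fn1 at 335 ± 54.0 TPM, Col3a1 at 316 ± 76.5 TPM, Col1a1 at 191 ± 95.2 TPM and Emilin1 at 143 ± 4.78 TPM, and Madcam1 was below 1 TPM in both.

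Adaptors and signalling proteins of integrin adhesions were detected for 29 of 30 genes, with Parvg, a leukocyte parvin, as the exception. The most abundant were Ilk at 363 ± 23.3 TPM, Flna at 181 ± 19.4 TPM, Zyx at 151 ± 18.8 TPM and Fermt2 at 130 ± 10.4 TPM. Ilk is the integrin-linked pseudokinase and Fermt2 a kindlin that activates integrins. Of the 30, 21 were higher in pool 2, beside 49.8% of protein-coding genes, with a median log2 ratio of 0.15. The calls were 2 of 29 with enough counts, a share near the 7.06% of all genes. Flnc, the muscle filamin, was called higher, with 68.5 TPM in pool 2 and 32.6 TPM in pool 1, and Tes, a focal adhesion protein, was called lower, with 10.4 TPM in pool 2 and 31.5 TPM in pool 1.

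Some members share exonic bases with other genes, and the sources used here do not say whether counting used strand. In release M21, Itgam shares 3450 exonic bases on the same strand with Gm49368, Itga10 shares 1739 with Gm42957 and Itga1 shares 685 with Gm49395, none of which has a gene row of its own in the tables. Transcripts that M21 gives to Gm49368 are counted there as Itgam. On the opposite strand, Itga8 shares 372 bases with E030013I19Rik, which had 14.5 counts in pool 2 and 33.8 in pool 1. Itgav shares 634 with Gm13684, which had 58.0 counts in pool 2 and 60.1 in pool 1. The counts of these partners were small beside those of Itga8 and Itgav. Itga4 shares 1124 with Cerkl, which had 3 counts in pool 2 and 11.6 in pool 1. Itgad shares 70 with Cox6a2, which had 6182 counts in pool 2 and 3784 in pool 1, far above those of Itgad.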

How the data were processed

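Total RNA from hearts was sequenced in 2 libraries of 1 group. Reads were quantified on mm10 with GENCODE M4, per the deposited description and the labels. The quantifying program was not given in the sources used here, nor was its handling of strand. The authors deposited expected counts and posterior mean counts (estimated counts per feature), TPM (scaled to length and to a fixed total over all features, with spike-ins) and FPKM per gene and per transcript. For each transcript, the percent of gene TPM was deposited as well. The deposited bounds of a TPM interval were treated as a score; they refer to the posterior mean, so the TPM can fall outside them.

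Names and positions came from GENCODE M21 (GRCm38, which is mm10). Of 43346 mouse genes 42462 were matched and 884 kept without a name. Counts were rounded and scaled by TMM in edgeR 4.0.16 (R 4.3.3, limma 3.58.1) over all genes, with a prior count of 0.5. DESeq2 1.42.0 gave alternative size factors, and Python 3.11.15 did the rest. No p-value was computed, since 2 libraries of 1 group leave no test. The limit for a pair of genes was the 95th percentile of the absolute log2 TPM ratio between pools over the 500 genes nearest each in mean TPM, combined as the root of summed squares; a pair passed where both pools had the same sign and the mean exceeded it. Ratios in long coding transcripts were held to the same limits, which were not recomputed at long coding levels. Exon sequences were read from M21 transcripts and aligned globally.

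Of the members, 1 is counted in the totals but not reported here. Otherwise values are given for every member with a mean of 10 TPM or more, each pair, each called gene and the 2 main transcripts of 10 genes. Of other lists, the 4 most abundant genes, up to 4 below 1 TPM and all called genes are named. Members, lists, pairs and markers were chosen with earlier results of these data known. A simplified form of the call rule was run on simulated counts with planted changes. That simulation set less spread than these pools showed and scaled by total counts, not TMM. It therefore cannot show how the rule performs on these data. The floor of 3 counts per library is what a count of 0 allows. Floor and intervals reflect counting error alone, as reads were not tagged by molecule.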

Additional observations from a re-analysis of the deposited data

How the results depend on the processing

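Of 127 recomputed values, 106 stayed close: pair ratios on their side of the limit and in their direction, counts within 1.5 times, shares within 1 SD and medians within 0.1. With 2 pools, a share from 1 pool always lies within 1 SD of their mean. Shares with 1 pool left out were therefore bound to count as close and show no stability. The share of Lama4 counted as close at 79.4% in pool 2 and 59.0% in pool 1. The number of members called, 1 at the settings used, was 2 by deposited TPM ratios (with Itga8), 2 at a mean count of 10 (with Itgb7), 6 with spike-in scaling (Itga5, Itgav, Itga1, Itga11, Lama4 and Lamb1) and 9 at a fold of 1.5, where 16.3% of all genes were called. Median log2 ratios of 0.24 (integrin alpha), -0.08 (integrin beta) and 0.50 (laminin) became 0.13, -0.23 and 0.34 by deposited TPM ratios and 0.56, 0.24 and 0.82 with spike-in scaling. These scalings set the median of all protein-coding genes at -0.10 and 0.32. The alpha median was 0.052 with no minimum count and 0.064 at a mean count of 100, where the beta median was 0.24. In long coding transcripts, an alternative added after the data were seen, the log2 ratio was -2.04 for Itgav over Itga5, -0.33 for Itga4 over Itga9 (reversed), 1.16 for Lama5 over Lama1, 1.08 for Lamb1 over Lamb2, 0.16 for Itgav over Itga1 (1.89 by gene TPM) and 0.01 for Itga2b over Itgb3 (0.76 by gene TPM). Lamb1 then held 66.7% of laminin beta TPM (68.0% by counts) and Lamc1 86.9% of laminin gamma TPM. With 1 pool left out, Lama5 over Lama4 ranged between -2.44 (pool 2 alone) and -0.95 (pool 1 alone). The causes were not tested. No paired analysis was possible because there is 1 group and its replicates have no partners in another. Members detected numbered between 16 at 5 TPM and 29 at 0.5 TPM, and 22 by FPKM at 1. With 2 pools, a member under a mean count of 50 was not open to a call, which held for 6 of the 37.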
